A study of Mus musculus with 6 samples.

Results

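Prostaglandins are lipid signals made from arachidonic acid, and 10 genes of their synthesis, breakdown and reception were examined in mouse primary chondrocytes with and without Uhrf1. Uhrf1 encodes a protein needed to copy DNA methylation marks after replication. The 10 genes were chosen by symbol, each had 1 entry in the deposited table of 23351 genes, and the rule used no measured value, although earlier results of these data were known. They comprise the synthesis genes Ptgs1, Ptgs2, Ptges, Ptgis and Ptgds, the breakdown gene Hpgd and the receptor genes Ptger1, Ptger2, Ptger3 and Ptger4. The cells were isolated from the knee cartilage of C57BL/6 pups on postnatal day 3. Once confluent, every culture received rhBMP-2 (recombinant bone morphogenetic protein 2) at 100 ng/ml for 24 hours, so both groups carry that treatment. One group of 3 libraries came from Control mice and the other 3 from Uhrf1 cKO (conditional knockout) mice. The sources used here do not give the Cre driver, the alleles of the controls or whether animals were pooled.

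In this pathway phospholipases release arachidonic acid from membranes, and the cyclooxygenases COX-1 (Ptgs1) and COX-2 (Ptgs2) turn it into the common precursor PGH2. Terminal synthases then make the separate products: Ptges makes PGE2, Ptgis makes prostacyclin and Ptgds makes PGD2. Hpgd starts the inactivation of PGE2, and the receptors EP1 to EP4 (Ptger1 to Ptger4) receive it at the cell surface. Chondrocytes are known to induce COX-2 and to release PGE2 under inflammatory cytokines such as interleukin-1.

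The promoters of Ptgs2 and Hpgd are shown because these genes had the largest differences among the 10. RefSeq windows of 300 bases on GRCm38.p6, the build called mm10, run from 250 bases before the annotated start to 50 after it. Such windows were found for 8 of the 10 genes, not for Ptgis and Ptger1. The window of Ptgs2 is chr1:150099781-150100080 and that of Hpgd is chr8:56294302-56294601, both on the plus strand. Capitals mark the letters of 4 motifs searched on both strands.
Ptgs2: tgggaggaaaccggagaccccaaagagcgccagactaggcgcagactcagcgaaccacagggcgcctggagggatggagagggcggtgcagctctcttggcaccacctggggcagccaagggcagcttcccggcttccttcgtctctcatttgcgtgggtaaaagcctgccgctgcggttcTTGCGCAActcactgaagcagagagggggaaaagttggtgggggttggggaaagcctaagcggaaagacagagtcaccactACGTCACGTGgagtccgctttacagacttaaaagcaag
Hpgd: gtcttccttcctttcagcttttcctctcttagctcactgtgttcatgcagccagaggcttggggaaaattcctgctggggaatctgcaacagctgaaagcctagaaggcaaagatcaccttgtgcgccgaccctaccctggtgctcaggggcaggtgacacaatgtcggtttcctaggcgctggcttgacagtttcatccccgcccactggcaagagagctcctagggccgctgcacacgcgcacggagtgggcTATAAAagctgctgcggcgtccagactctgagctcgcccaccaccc

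In the Ptgs2 window the core of a cyclic AMP response element, ACGTCA, stood at bases 13 to 18 from the RefSeq start and shared 2 bases with an E-box, CACGTG, at bases 17 to 22. The table's own Ptgs2 interval starts 93 bases further downstream, so both motifs lie before that start. The C/EBP palindrome TTGCGCAA stood at bases -69 to -62. Among all 32851 windows, 7.51% held ACGTCA or its reverse complement, 7.15% held CACGTG and 0.183% held TTGCGCAA. The Hpgd window held the TATA box letters TATAAA at bases 5 to 10, as 13.6% of all windows held them on either strand. These letters lie after the annotated start, which is also the start of the deposited Hpgd interval, so a working TATA box is not shown. The other 6 windows held none of the 4 motifs, which says nothing about sites outside them. CpG dinucleotides, the sites that DNA methylation marks, numbered 16 in the window of Ptgs2, 12 in that of Hpgd, 10 for Ptges, 6 for Ptgs1 and 2 for Ptgds. The receptor windows held 27 for Ptger3, 25 for Ptger4 and 3 for Ptger2, and the median over all windows was 7. Methylation itself was not measured.

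Expression was given in FPKM, fragment numbers corrected for transcript length and for the size of the library, with 1 value per gene and library. Absolute depth was unknown, and 11233 to 11635 genes reached 1 FPKM in a library. The 11911 genes that reached 1 FPKM in 2 libraries or more were tested with limma on log2(FPKM + 1). An adjusted p under 0.05 counted as a call. That call was made for 9.81% of tested genes in the higher and 7.96% in the lower direction. The labels name no separate animals or cultures, so the p-values describe the spread between these libraries only, which may be technical in part. The library names carry 1 prefix in Control and another in cKO, and what it marks cannot be told apart from genotype. The Y-linked gene Ddx3y stood at 31.6, 0 and 24.3 FPKM in the controls and at 22.2, 0 and 0 in the cKO libraries. Each group thus held libraries with and without this transcript, so its 3 libraries are not all repeats of 1 pool of cells. By this gene, sex was mixed within the groups and uneven between them, and it was not fitted. The targeted gene Uhrf1 stood at 28.2, 22.9 and 30.6 FPKM in the controls and at 3.22, 3.17 and 2.73 in cKO, and no control value overlapped a cKO value.

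Of the 10 transcripts 3 were called higher in cKO cells and none lower. Hpgd rose 6.49-fold, Ptgs2 4.27-fold and Ptgs1 1.61-fold. Ptges and Ptgis, the terminal synthases for PGE2 and prostacyclin, differed in opposite directions without passing the test. The receptor transcripts were low in both groups and none was called. Of the 10 genes 6 passed the expression filter, and 3 of these were called higher against the 9.81% of all tested genes. The authors' deposited table tested 5 of the 10 and gave all 5 a q under 0.05, Ptgis as lower and the others as higher, against 22.9% of all genes it tested. The libraries of the 2 groups did not overlap for 4 of the 6, against 35.9% of all tested genes. The median difference was 0.56 over the 6 and 0.000386 over all tested genes.

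**Figure D1:**
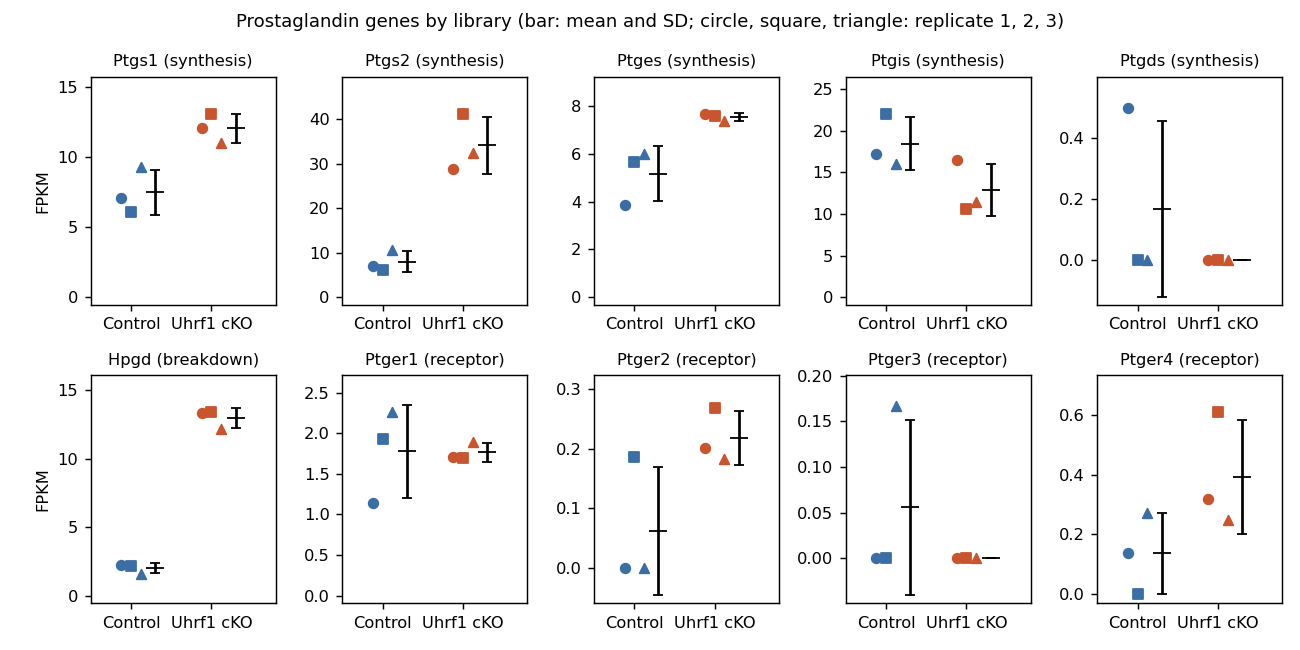
FPKM of the 10 genes in each of the 3 Control (blue) and 3 Uhrf1 cKO (orange) libraries, on a linear axis of its own for each gene; the horizontal bar is the group mean and the whiskers are 1 SD. Hpgd, Ptgs2, Ptgs1 and Ptges lie apart in the 2 groups, Ptgis and Ptger1 overlap, and Ptgds and the other receptors lie under 1 FPKM.

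Ptgs2 (chromosome 1, 150100124 to 150108012, mm10) encodes COX-2, the cyclooxygenase that many stimuli induce. It stood at 7.06, 6.20 and 10.7 FPKM in the controls and at 28.8, 41.2 and 32.3 in cKO. Every cKO library lay above every control, the lowest cKO value being 28.8 and the highest control 10.7. The group means were 7.98 ± 2.37 (SD, n = 3) and 34.1 ± 6.39 (SD, n = 3). On the log2(FPKM + 1) scale the difference was 1.98 (standard error 0.19; limma, adjusted p = 0.000135). With any 1 library left out it ranged from 1.84 to 2.19 and was called each time.

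Ptgs1 (chromosome 2, 36230426 to 36252269) encodes COX-1, the cyclooxygenase that most tissues make without a stimulus. It stood at 7.07, 6.07 and 9.26 FPKM in the controls and at 12.1, 13.1 and 10.99 in cKO. The groups did not overlap here either, but they lay closer together than for Ptgs2. The means were 7.47 ± 1.63 (SD, n = 3) and 12.04 ± 1.04 (SD, n = 3), a difference of 0.64 (standard error 0.15; limma, adjusted p = 0.0176). This call rested on few libraries. It was lost without Control 2 (adjusted p = 0.0586), without cKO 1 (adjusted p = 0.0556) and without cKO 2 (adjusted p = 0.0668). The authors' deposited table gave q = 0.000972 for Ptgs1.

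The terminal synthases went separate ways. Ptges (chromosome 2, 30889471 to 30903297) encodes the inducible microsomal PGE2 synthase. Its values were 3.86, 5.66 and 6.01 FPKM in the controls and 7.68, 7.60 and 7.37 in cKO. All cKO libraries lay above all controls, and Control 1 was the lowest. The difference of 0.49 with a standard error of 0.16 did not pass the test (limma, adjusted p = 0.0603). Without Control 3 it did (adjusted p = 0.0442), and the authors' deposited table called it with q = 0.00795.

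Ptgis (chromosome 2, 167203196 to 167240537) encodes prostacyclin synthase. It stood at 17.2, 22.1 and 16.03 FPKM in the controls and at 16.5, 10.7 and 11.5 in cKO. The groups overlapped because cKO 1, at 16.5, lay above Control 3. The difference was -0.50 (standard error 0.17; limma, adjusted p = 0.0789). Without cKO 1 the difference was -0.68 and passed (adjusted p = 0.0230), and the authors' deposited table called it lower with q = 0.00825. Ptgds (chromosome 2, 25466712 to 25469749), the lipocalin-type PGD2 synthase, was listed at 0.4995 FPKM in Control 1 and at 0 in the other 5 libraries. It did not pass the expression filter, and a fit without the filter did not call it (limma, difference -0.19, adjusted p = 0.493).

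Hpgd (chromosome 8, 56294552 to 56321046) had the largest ratio of the 10. It encodes 15-hydroxyprostaglandin dehydrogenase, which oxidises PGE2 to a product that its receptors bind poorly. It stood at 2.23, 2.16 and 1.596 FPKM in the controls and at 13.3, 13.4 and 12.1 in cKO. The cKO libraries lay close to each other and far above every control. The means were 1.996 ± 0.347 (SD, n = 3) and 12.96 ± 0.707 (SD, n = 3), a difference of 2.23 (standard error 0.14; limma, adjusted p = 7.85e-06). It was called with any 1 library left out (adjusted p at most 0.000125).

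Ratios of these transcripts within a library do not depend on how the libraries were scaled. The ratio of Ptgs2 to Ptgs1 was 0.998, 1.02 and 1.153 in the controls and 2.38, 3.15 and 2.94 in cKO. Both cyclooxygenase transcripts thus stood at about the same FPKM in controls, while Ptgs2 led in every cKO library. The ratio of Ptgs2 to Ptgis was 0.409, 0.281 and 0.666 in the controls and 1.74, 3.87 and 2.81 in cKO, again without overlap. The ratio of Ptges to Ptgs2 was lower in every cKO library, at 0.267, 0.185 and 0.228 against 0.546, 0.912 and 0.564. The ratio of Ptges to Ptgis was 0.224, 0.257 and 0.375 in the controls and 0.465, 0.714 and 0.642 in cKO. Only the ratio of Hpgd to Ptgs2 overlapped among these 5, at 0.315, 0.349 and 0.1496 in the controls and 0.464, 0.325 and 0.376 in cKO. These ratios were not tested.

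**Figure D2:**
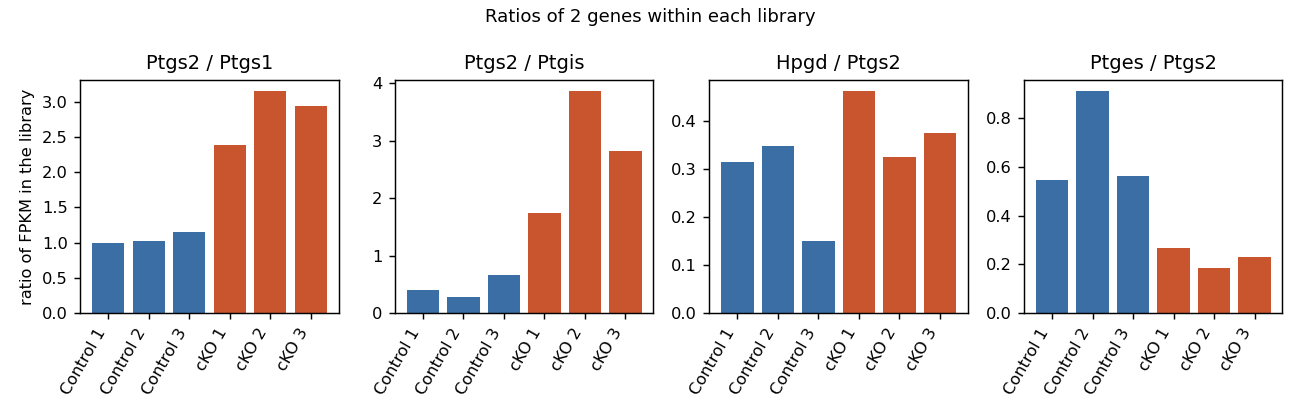
Ratio of the FPKM values of 2 genes within each library, with 1 bar per library (blue, Control; orange, Uhrf1 cKO) and axes that start at 0. Ptgs2 to Ptgs1 lies between 0.998 and 1.153 in controls and between 2.38 and 3.15 in cKO, Ptgs2 to Ptgis is also higher and Ptges to Ptgs2 lower in every cKO library, and Hpgd to Ptgs2 overlaps between the groups.

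The order of the transcripts by mean FPKM, a scale per transcript length, differed between the groups. In controls Ptgis stood first at 18.4 ± 3.19 FPKM (SD, n = 3), followed by Ptgs2, Ptgs1, Ptges, Hpgd and Ptger1. Ptgs2 and Ptgs1 overlapped there, as did Hpgd and Ptger1, while the other neighbours among these 6 did not. In cKO Ptgs2 stood first, and Hpgd, Ptgis and Ptgs1 followed at 12.96, 12.9 and 12.04 FPKM. Hpgd and Ptgis overlapped, as did Ptgis and Ptgs1. Ptges and Ptger1 came after them without overlap.

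The receptor transcripts were low, and only Ptger1 among them reached 1 FPKM. Ptger1, for the receptor EP1, stood at 1.146, 1.93 and 2.26 FPKM in the controls and at 1.70, 1.69 and 1.90 in cKO. The cKO values lay inside the control range. The difference was 0.01 with a 95% interval from -0.42 to 0.45 (limma, adjusted p = 0.970), and it turned negative without Control 1 (-0.16) or without cKO 3 (-0.02). The interval given for Ptger1 overlaps that of 1 other gene, the only such overlap among the members, and runs past the RefSeq end of Ptger1. The sources used here do not say how fragments of overlapping genes were assigned or whether strand was used, so the Ptger1 values are uncertain.

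The other receptors lay under 1 FPKM in every library and were outside the main test. Ptger4 (chromosome 15, 5233404 to 5243831) encodes EP4, which raises cyclic AMP. It stood at 0.138, 0 and 0.271 FPKM in the controls and at 0.318, 0.610 and 0.249 in cKO. Control 3 overlapped cKO 3. Ptger2 (chromosome 14, 44988111 to 45003820) encodes EP2, which also raises cyclic AMP, and stood at 0, 0.185 and 0 against 0.201, 0.269 and 0.183 FPKM. Here Control 2 overlapped cKO 3. In the fit without a filter, in which 12.0% of 16187 genes were called, the differences were 0.29 for Ptger4 (limma, adjusted p = 0.230) and 0.20 for Ptger2 (limma, adjusted p = 0.260). Ptger3 (chromosome 3, 157566892 to 157644758), whose receptor EP3 lowers cyclic AMP, was listed at 0.167 FPKM in Control 3 and at 0 elsewhere. The authors' deposited table marks all 4 receptor genes as not tested.

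The rest of the pathway was read from a list of 38 further genes for phospholipases, synthases, transporters, receptors and the neighbouring leukotriene branch. Of these 23 passed the filter, 2 rose, 2 fell and 19 were not called, with a median difference of 0.02. That share stands beside 17.8% called among all tested genes. The authors' deposited table tested 18 of the 38 and gave 7 a q under 0.05, against 22.9% of all genes it tested. The 7 include Slco2a1, the prostaglandin uptake carrier, as higher (q = 0.000520) and Abcc4, a prostaglandin export pump, as lower (q = 0.00495), both named after their values were seen and neither called by limma (adjusted p = 0.0723 and 0.111). Pla2g4a, the cytosolic phospholipase that supplies arachidonic acid, stood at 14.2, 15.1 and 16.6 FPKM in the controls and at 24.7, 27.6 and 25.1 in cKO. The groups were far apart for their spread, and Pla2g4a rose 1.69-fold (limma, adjusted p = 0.00114). Pla2g16, a phospholipase best known from fat cells, rose 2.12-fold from 4.28, 3.48 and 4.68 to 9.05, 9.14 and 8.13 FPKM (limma, adjusted p = 0.00147).

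In the other direction, the secreted phospholipase gene Pla2g12a fell 2.06-fold. Its values were 24.98, 28.2 and 22.1 FPKM in the controls and 12.75, 8.28 and 15.6 in cKO (limma, adjusted p = 0.00662). Akr1b7, an aldo-keto reductase with prostaglandin F synthase activity, stood at 5.84, 5.62 and 3.74 FPKM against 0.338, 0 and 0.921 (limma, adjusted p = 0.000557). Akr1b7 passed the expression filter only through the control libraries, so a fall was favoured in advance. The authors' deposited table did not call Akr1b7 (q = 0.141). The abundant members that did not pass were Ptges3, a co-chaperone described as a cytosolic PGE2 synthase, at 96.1 ± 11.4 and 85.9 ± 3.97 FPKM (SD, n = 3), Fam213b, described as a prostamide and prostaglandin F synthase, at 46.4 ± 10.3 and 32.3 ± 6.58, Lta4h of the leukotriene branch at 42.6 ± 3.36 and 34.6 ± 2.55, and Ptgfrn at 25.1 ± 2.01 and 21.7 ± 1.14. Their adjusted p-values in limma ran from 0.0637 for Lta4h to 0.314 for Ptges3. The authors' deposited table did call Fam213b (q = 0.0103) and Lta4h (q = 0.0388) lower.

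**Figure D3:**
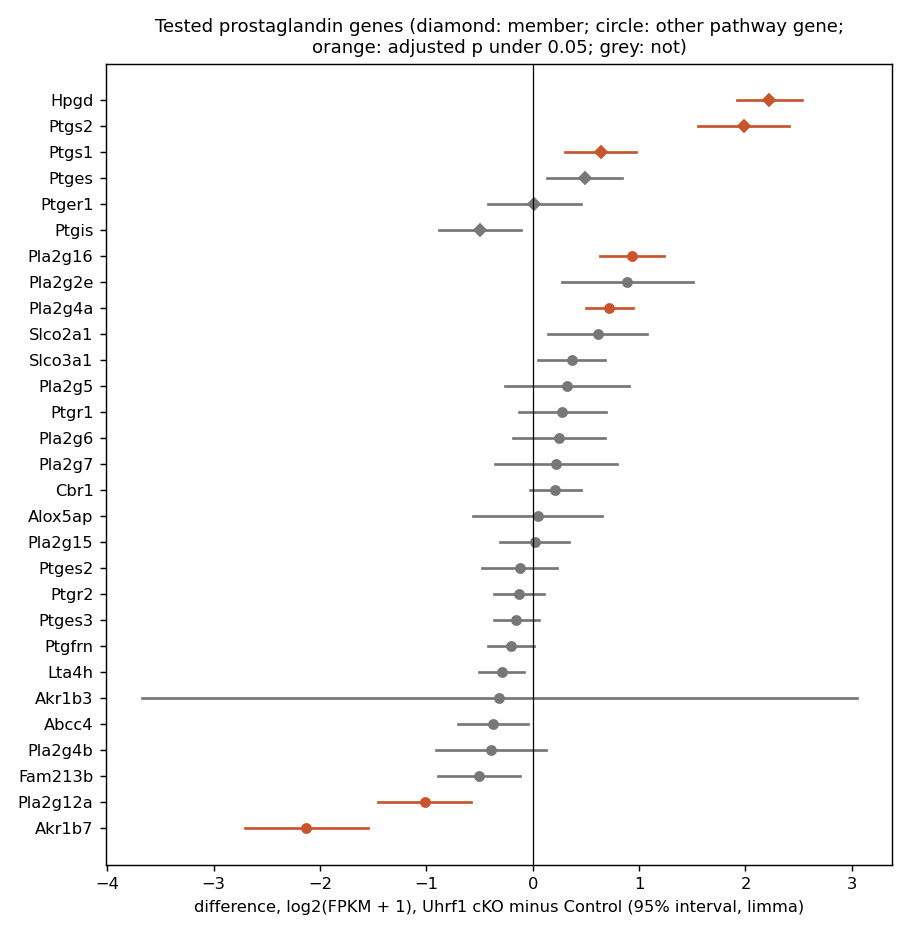
Difference between Uhrf1 cKO and Control on the log2(FPKM + 1) scale with its 95% interval from limma, for the 6 tested members (diamonds) and 23 other tested pathway genes (circles); orange marks an adjusted p under 0.05. Hpgd, Ptgs2, Ptgs1, Pla2g16 and Pla2g4a are called on the right of 0, and Pla2g12a and Akr1b7 on the left. Akr1b7 entered the test only through its control values.

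Genes that carry or answer the cyclic AMP signal of EP2 and EP4 were listed next. Of 23 such genes 19 were tested, 2 rose and none fell, with a median difference of 0.12. That is near the 9.81% called higher among all tested genes. Rgs2, which restrains G protein signals, rose 1.81-fold from 4.51, 2.47 and 3.90 to 6.11, 6.71 and 6.83 FPKM (limma, adjusted p = 0.0217). That call was lost without cKO 2 (adjusted p = 0.0670) and without cKO 3 (adjusted p = 0.0787). Dusp1, a phosphatase that switches off MAP kinases, rose 1.51-fold from 29.9, 31.6 and 37.98 to 45.4, 53.1 and 51.7 FPKM (limma, adjusted p = 0.00618). The early genes Nr4a1, Fos and Per1 were among the 17 not called. So was Nr4a2, at 2.62, 3.04 and 2.80 FPKM in the controls and 3.29, 4.07 and 4.49 in cKO, without overlap. The authors' deposited table tested 13 of the 23 and gave 3 a q under 0.05, against 22.9% of all genes it tested. These were Rgs2, Dusp1 and Adcy6 (q = 0.0237), all higher.

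Of 23 known inducers of Ptgs2 or factors of its mRNA stability, 19 were tested, 4 rose and 2 fell, with a median difference of 0.15. Among all tested genes 9.81% were called higher and 7.96% lower. The authors' deposited table tested 17 of the 23 and gave 5 a q under 0.05, against 22.9% of all genes it tested. These were Zfp36, Tlr2 and Nfkb2 as higher and Il1r1 and Il1rn as lower. Zfp36 encodes tristetraprolin, which speeds the decay of AU-rich mRNAs, Ptgs2 mRNA among them. It rose 1.78-fold from 5.11, 4.83 and 6.59 to 9.09, 9.95 and 10.3 FPKM (limma, adjusted p = 0.00548). The innate receptor gene Tlr2 rose 1.64-fold (limma, adjusted p = 0.00764) and Nfkb2, a subunit of NF-kappa-B, rose 1.64-fold (limma, adjusted p = 0.0131), the latter lost without cKO 3 (adjusted p = 0.0611). The fourth rise was that of Nfkbia, an inhibitor of NF-kappa-B named here to complete the count, by 1.48-fold (limma, adjusted p = 0.0145). It was lost without Control 2 (adjusted p = 0.0543) or cKO 3 (adjusted p = 0.0609), and the authors' deposited table gave q = 0.259.

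Neither of the interleukin-1 genes of this list that were tested rose. The ligand genes did not pass the filter: Il1b was listed at 0 in all 6 libraries, and Il1a at 0, 0.186 and 0 FPKM in the controls and 0, 0.359 and 0.365 in cKO. Il6, another cytokine gene outside the main test, was listed at 0 in all controls and at 0.398, 0.355 and 0.362 FPKM in cKO. The fit without a filter called Il6 higher (limma, adjusted p = 0.0114). Il6 entered that fit only through low values in the cKO libraries, so a rise was favoured in advance. The authors' deposited table marks it as not tested. The receptor gene Il1r1, named after its values were seen, fell 1.47-fold from 32.1, 23.04 and 27.4 to 16.9, 19.4 and 19.9 FPKM (limma, adjusted p = 0.0220). Its call was lost without Control 3 or any 1 of the cKO libraries (adjusted p = 0.0507 to 0.0820). Il1rn, the receptor antagonist gene, fell 4.12-fold from 48.9, 16.6 and 28.3 to 9.94, 3.802 and 9.07 FPKM (limma, adjusted p = 0.0205), a call lost without Control 3 (adjusted p = 0.0688).

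**Figure D4:**
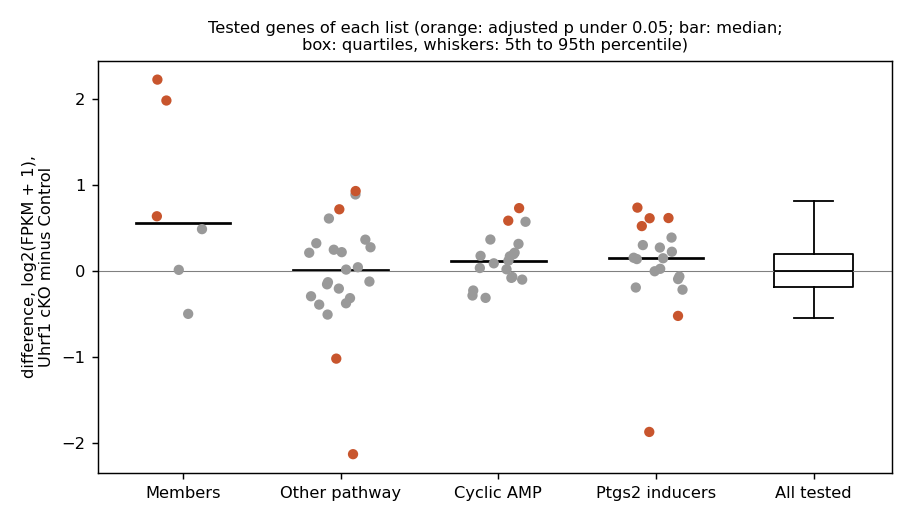
Difference between Uhrf1 cKO and Control on the log2(FPKM + 1) scale for each tested gene of the 10 members, 38 other pathway genes, 23 cyclic AMP genes and 23 Ptgs2 inducers. Orange marks an adjusted p under 0.05 and the bar is the median. The box spans the quartiles of all 11911 tested genes, whose extremes are not drawn. The medians of the lists are 0.56, 0.02, 0.12 and 0.15, and the 2 highest points among the listed genes are Hpgd and Ptgs2.

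Genes next to Ptgs2 on chromosome 1 were then read from the intervals of the table, a choice made after values were seen. The window reached 500 kb to either side of Ptgs2. Besides Ptgs2 and 1 noncoding RNA, 4 genes were tested there, and 2 were called, Pla2g4a and Prg4, both higher, beside 17.8% called in either direction among all tested genes. 7530420F21Rik, which RefSeq names Ptgs2os, is a long noncoding RNA that starts 157 bases from the Ptgs2 start and runs the opposite way. The promoter windows of both share 256 bases, which include the capitals of the Ptgs2 sequence above. 7530420F21Rik was listed at 0 in all controls and stood at 1.57, 1.05 and 1.43 FPKM in cKO. It passed the expression filter only through the cKO libraries, so a rise was favoured in advance. The authors' deposited table marks it as not tested. Its interval does not overlap that of Ptgs2.

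Pla2g4a, described above, ends 138.8 kb from the Ptgs2 start on the same chromosome. On the other side Prg4, the lubricin gene of the joint surface, stood at 20.7, 16.9 and 18.6 FPKM in the controls and at 27.7, 25.5 and 25.5 in cKO. Prg4 was called higher (limma, adjusted p = 0.0118), but not in the authors' deposited table (q = 0.220). Prg4 shares its interval with Tpr and BC003331, which were not called (limma, adjusted p = 0.738 and 0.388).

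**Figure D5:**
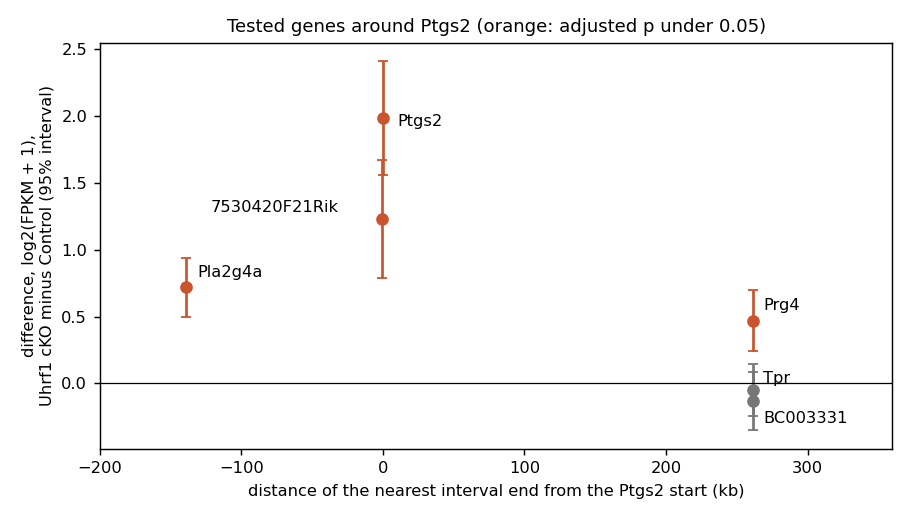
Difference between Uhrf1 cKO and Control on the log2(FPKM + 1) scale, with the 95% interval from limma, against the distance in kb of each tested gene's nearest interval end from the Ptgs2 start. Ptgs2, 7530420F21Rik, Pla2g4a and Prg4 are called (orange), 7530420F21Rik having entered the test only through its cKO values, and Tpr and BC003331, drawn at the shared interval of Prg4, are not.

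The genes most like Hpgd were found by the root mean square distance between log2(FPKM + 1) values over the 6 libraries, each gene centred on its own mean. Nearest were Tfpi, an inhibitor of the start of blood clotting, at a distance of 0.121, Slfn4, a Schlafen family gene of myeloid cells, at 0.130, and Itgbl1, an integrin beta-like gene, at 0.130. Tfpi stood at 0.710, 0.591 and 0.327 FPKM in the controls and at 5.19, 5.48 and 6.15 in cKO. Slfn4 was listed at 0 in all controls and stood at 3.72, 3.15 and 3.04 in cKO. Itgbl1 stood at 5.43, 4.28 and 3.95 against 22.999, 20.8 and 21.98 FPKM. Tfpi and Slfn4 passed the expression filter only through the cKO libraries, so a rise was favoured in advance. The likeness also depends on the 1 added before the log2. With 0.1 added instead, the differences lay further apart, at 2.65 for Hpgd, 3.197 for Tfpi, 5.08 for Slfn4 and 2.26 for Itgbl1. The authors' deposited table marks Slfn4 as not tested.

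Markers of cell types were measured beside these results. All 6 chondrocyte markers were expressed, and limma called 5 of the 6 lower. Their summed level was 8281 to 11268 FPKM in the controls and 5713 to 6116 in cKO. Most of it came from Col2a1, with means of 7047 and 4675 FPKM. The authors' deposited table did not call Col2a1 (q = 0.457) or Sox9 (q = 0.243), but called Acan, Col9a1, Matn1 and Hapln1 lower. Of 6 skeletal muscle markers limma called all 6 higher. However, 5 of them (all but Acta1) passed the filter only through the cKO libraries, so a rise was favoured in advance. The 6 markers summed to 1.70 to 3.87 FPKM in the controls and 95.8 to 167 in cKO. The authors' deposited table called Myog and Acta1 higher (q = 0.000520 each) but not Des, Mylpf, Myl1 or Myh3 (q = 0.0600 to 0.417). The 8 macrophage and leukocyte markers summed to 9.95 to 50.1 FPKM in the controls and 27.3 to 37.1 in cKO, and limma called 1 of the 5 tested, Fcer1g, higher. The authors' deposited table did not call Fcer1g (q = 0.335) but called the macrophage lysozyme gene Lyz2 lower (q = 0.000520), at 46.6, 22.9 and 7.02 FPKM in the controls against 7.41, 9.56 and 12.0 in cKO. Fcer1g passed the filter only through the cKO libraries. Emr1, Itgam and Ptprc lay under 1 FPKM in every library, with lower cKO means for Emr1 and Itgam and a higher one for Ptprc. Csf1r stood at 0.505, 0.900 and 0.581 FPKM in the controls and at 1.07, 1.13 and 1.77 in cKO, without overlap. The means of Cd68 were 1.68 in the controls and 2.72 in cKO, and those of Cd14 were 0.881 and 1.91, with overlapping libraries. Limma called none of Csf1r, Cd68 and Cd14. Of 5 mast cell markers 4 were at 0 in every library and the sum was at most 0.129 FPKM. Of 5 endothelial markers 1 was at 0 everywhere and the sum was at most 0.943 FPKM. The 6 synovial and superficial-zone markers summed to 83.9 to 133 FPKM in the controls and 111 to 118 in cKO. Limma called Prg4 and Gdf5 higher and Cd34 lower. The authors' deposited table called Gdf5 higher (q = 0.000520) but not Prg4. It called Thy1, Cd34 and Pdgfra lower (q = 0.000520, 0.0147 and 0.00139). Thy1 did not overlap between the groups, though limma did not call it (adjusted p = 0.0555). The part of the muscle and leukocyte markers in the rises of Hpgd, Ptgs2 and Ptgs1 was not tested. In bulk RNA, fewer cells of a type and less RNA per cell cannot be told apart.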

How the data were processed

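RNA of 6 libraries, 3 per group, was measured. Per the series text and the submitters' processing notes, TopHat mapped the reads to mm10 and Cufflinks analysed them. The authors deposited 1 table with FPKM values per library and group, and, per the file headers, the p-value, q-value, log2 fold change and test statistic (a score) of their own comparison. The sources used here do not give versions, annotation, strand setting or scaling. In 27 entries a date had replaced the symbol, and 1 line was empty.

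FPKM are not counts, so limma 3.58.1 in R 4.3.3 (trend and robust options) was run on log2(FPKM + 1), two-sided, without a replicate block, with Benjamini-Hochberg adjustment over 11911 genes, and checked on simulated data. The scale understates changes of low genes. Folds are ratios of mean FPKM, given only over a control (or, for falls, cKO) mean of at least 1 FPKM. An exact 0 may be a failed estimate.

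Deposited starts count from 0: of 21341 genes matched to RefSeq, 49.4% began 1 base below the RefSeq start, so 1 was added. Members, lists and most tests were chosen with earlier results of these data known. All 10 members, up to 10 called pathway genes, uncalled pathway genes with a mean of at least 20 FPKM, and up to 4 called genes of the other lists by ratio were named. Same-numbered libraries were not paired by the labels. Alternatives were other thresholds, filters, pseudocounts and scalings, limma without its options, a replicate block, leaving out each library and the authors' deposited test. 1 item is not reported here.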

Additional observations from a re-analysis of the deposited data

How the results depend on the processing

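Hpgd and Ptgs2 kept their call under all 17 alternatives, including the authors' deposited test. Ptgs1 kept it in 12 of 17. Leaving out 1 library gave 2 to 4 members called higher and 0 to 1 lower, 765 to 1095 genes higher and 503 to 931 lower, and Ptger1 differences of -0.16 (without Control 1), -0.02 (without cKO 3) and up to 0.14. The low totals came with 5 libraries in place of 6. The authors' test called 1 member (Ptgis) and 4 other pathway genes lower. With adjusted p under 0.01, 647 genes were higher and 377 lower. With a log2 difference of at least 1, 431 were higher, 75 lower, and 0 other pathway genes higher. Upper-quartile scaling gave 1227 higher and 814 lower genes. Fitting the replicate number as a block gave 1151 higher and 946 lower genes and 3 members higher, and among named genes changed only the call of Lta4h (adjusted p = 0.0486). On the log2(FPKM + 1) scale, control and cKO libraries correlated at 0.946 to 0.956. After each gene's group mean was subtracted, same-numbered libraries correlated at 0.169, 0.0258 and -0.0443. Not every library then correlated best with its own number. Over 31 named genes, 465 of 507 values kept direction and call. Depth is unknown, and receptors under 1 FPKM were outside the main test.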

Other observations

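Lipoxygenase genes, which take arachidonic acid into other products, were low. Alox15 and the leukotriene C4 synthase gene Ltc4s were listed at 0 in all 6 libraries, and Alox5, the 5-lipoxygenase gene, at 0 in the controls and at 0.136, 0.121 and 0 FPKM in cKO. Alox12, the 12-lipoxygenase gene, stood at 0.443, 0.118 and 0.327 FPKM in the controls and at 0.512, 0.915 and 0.932 in cKO, and the groups did not overlap. None of these passed the expression filter. Alox5ap, whose protein 5-lipoxygenase needs, did pass, at 1.39, 0.993 and 0.457 FPKM in the controls and 1.61, 0.479 and 0.974 in cKO, with overlapping groups.

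Prostanoid receptors outside the PGE2 group were also low. Ptgfr, the prostaglandin F receptor gene, stood at 0.588, 0.471 and 0.796 FPKM in the controls and at 0.850, 0.304 and 0.619 in cKO, and the groups overlapped. The prostacyclin receptor gene Ptgir was listed at 0.0987, 0 and 0.0972 FPKM in the controls and at 0 in every cKO library.

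Akr1b3, an aldose reductase gene with prostaglandin F synthase activity, reached 13.3 FPKM in Control 2 and 6.46 FPKM in cKO 2 but stood at no more than 0.00152 in the other 4 libraries. The labels give these libraries the same replicate number, and the cause was not tested.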
